A study of Mus musculus with 8 samples.

Results

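The RANKL, osteoprotegerin and CSF1 axis is described here in single-cell RNA sequencing of mouse femur by its 6 genes, picked by name: Tnfsf11 (RANKL), Tnfrsf11b (osteoprotegerin), Tnfrsf11a (RANK), Csf1, Il34 and Csf1r. They are the ligands, the decoy receptor and the signalling receptors of the pathways that form osteoclasts, and all 6 were found among the 28956 genes of the count tables. The cells were stromal cells of the femur of 12-week-old female C57BL/6 mice, depleted with magnetic beads of cells carrying CD45, CD117 or blood lineage markers. In the Fracture group the left femur had been broken by three-point bending at 10 weeks of age, held with an intramedullary nail and taken at day 14. The Control group was unfractured bone. By their titles, the samples of each group carried 2 numbers, taken here as cell preparations and called Control-1, Control-2, Fracture-1 and Fracture-2. Each number had 2 libraries of the Chromium 3′ kit, taken as loadings of the same preparation, which the titles do not state. The libraries of a preparation were added together, so n = 2 per group. How many animals went into a preparation was not given. The study's supplement speaks of independent replicates, but neither it nor the labels state that preparations came from separate animals. The p-values thus measure the spread between these preparations, which may be technical.

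Osteoclasts, the cells that resorb bone and calcified cartilage, form from precursors of the monocyte lineage. The precursors need CSF1 or IL-34, which both signal through the CSF1 receptor and keep them alive and dividing, and RANKL, which acts through RANK and drives their differentiation and fusion. Osteoprotegerin is a secreted receptor that binds RANKL and keeps it from RANK, so the balance of RANKL and osteoprotegerin sets how much RANKL signal reaches a precursor. In bone, RANKL is known from marrow stromal cells, osteocytes and hypertrophic chondrocytes, and CSF1 from many stromal and endothelial cells. The comparison addressed here is which stromal cells held the transcripts of these genes, and how their levels differed between unfractured and fractured bone.

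The gene bodies of 5 members are given on GRCm38 (GENCODE M21). Tnfsf11 is at chr14:78277445-78308043 on the minus strand and Tnfrsf11b at chr15:54250619-54278484 on the minus strand. Tnfrsf11a is at chr1:105780718-105847981 on the plus strand, Csf1 at chr3:107741048-107760469 on the minus strand, and Il34 at chr8:110741829-110805924 on the minus strand. Promoter windows of 250 bases before and 50 after the start of transcription were matched for 3 of the 6 genes, Tnfsf11, Csf1 and Tnfrsf11a, in RefSeq (GRCm38.p6). The 100 bases before the start are shown for the ligand genes Tnfsf11 and Csf1, since both fell in bone marrow stromal-like cells, read 5′ to 3′ on the gene's strand, with the letters that matched a motif in capitals.

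Tnfsf11, chr14:78308044-78308143, minus strand: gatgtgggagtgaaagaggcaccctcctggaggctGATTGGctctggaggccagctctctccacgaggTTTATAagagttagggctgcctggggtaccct
Csf1, chr3:107760470-107760569, minus strand: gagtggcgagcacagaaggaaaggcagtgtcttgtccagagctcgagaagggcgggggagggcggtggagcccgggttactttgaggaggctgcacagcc

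Motifs were searched on both strands of the full windows: TATAAA (the TATA box), TGTGGT (the RUNX core), TGACTCA (AP-1) and GATTGG (the CCAAT box, reversed). The Tnfsf11 window held TATAAA on the opposite strand, 32 bases before the start, and GATTGG 65 bases before the start, with no overlap between them. The windows of Csf1 and Tnfrsf11a held none of these letters. Of 32851 windows in the table, 13.6% held TATAAA, 16.8% TGTGGT, 5.2% TGACTCA and 16.1% GATTGG on either strand.

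After filtering, 45328 of 48903 cell barcodes were kept, 20676 of them in the Control group. The libraries held 56543151 to 89126291 unique molecular identifiers (UMIs, each standing for 1 captured transcript), and the median cell of a preparation held 7302 to 8278 UMIs in Control and 11011 to 11694 in Fracture. The Control tables reach down to barcodes of 1 UMI, while the smallest Fracture barcode held 1929, and libraries of different preparations shared 10 to 20 barcode sequences. Clusters made across the preparations were named from marker lists as "-like" classes, and levels are given as CPM, the UMIs of a gene scaled to the same total in each class and preparation. All 6 markers of bone marrow stromal cells (BMSC) were present in the BMSC-like class, but their summed level was 25801 and 26952 CPM in Control and 1893 and 2176 CPM in Fracture, so that the name rests on far lower marker levels after fracture. Within that class the Adipoq-rich diaphyseal subclass (dpMSC-like) held 1381 and 1043 cells in Control and 88 and 110 in Fracture, and the metaphyseal subclass (mpMSC-like) 1083 and 606 against 543 and 578. A further 95 and 53 Control cells and 391 and 408 Fracture cells of the class fell, with finer clusters, into the fibroblast-like cluster. Values of the mpMSC-like subclass also include 231 cells of the osteoblast-like class. The BMSC-like levels of the ligands and of Tnfrsf11b are therefore given with those of the subclasses. The 7 chondrocyte markers were all higher in both Fracture preparations in the BMSC-like, endothelial-like, smooth muscle-like, basophil-like and erythroid-like classes. Cells of the erythroid-like class should lack these genes, and their levels serve as the background of free RNA.

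Tnfsf11, the ligand, was highest in the BMSC-like class in every preparation, and there its level was lower after fracture. It stood at 102 CPM in Control-1 (1524 UMIs), 96.2 CPM in Control-2, 63.7 CPM in Fracture-1 and 58.7 CPM in Fracture-2, so the groups did not overlap. The log2 fold change was -0.50 (SE 0.08, edgeR adjusted p = 0.00854). Of the 5 members tested in this class, 1 rose and 3 fell, beside 51.5% of all genes tested that were called in either direction (25.4% higher and 26.1% lower in Fracture). Without the cells of the finer fibroblast-like cluster it was -0.34 (adjusted p = 0.0220, with 44.8% of all genes called), a fit added after the data had been seen. The BMSC-like cells of that finer cluster held 149 and 147 CPM in Control and 58.2 and 46.5 CPM in Fracture, which was not tested. Neither the dpMSC-like nor the mpMSC-like subclass on its own passed the test. In dpMSC-like cells Tnfsf11 was 128 and 109 CPM in Control and 112 and 136 CPM in Fracture, which overlap (log2 fold change 0.17, SE 0.16, adjusted p = 0.552). In mpMSC-like cells it was 62.9 and 64.5 CPM in Control against 58.2 and 54.5 CPM in Fracture, which do not overlap (log2 fold change -0.01, SE 0.09, adjusted p = 0.931, 95% interval -0.18 to 0.16). The call in the whole class also depended on how the class was made: with clusters made without integration the BMSC-like cluster, led by Adipoq, held 2050 and 1471 Control cells and 78 and 100 Fracture cells, a cluster led by Mmp9 stayed unnamed, and the log2 fold change was 0.30 (adjusted p = 0.354). Without Fracture-1 it was -0.54 (adjusted p = 0.0644) and without Fracture-2 -0.44 (adjusted p = 0.0791).

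The next highest level of Tnfsf11 was in hypertrophic chondrocyte-like cells, the last stage of cartilage before it is replaced by bone, at 38.7 and 27.1 CPM in Control and 39.5 and 41.2 CPM in Fracture. The Fracture values lay above both Control values by a margin that did not pass the test (log2 fold change 0.32, SE 0.19, adjusted p = 0.311). Without Control-1 the log2 fold change was 0.67. Of the 4 members tested in these cells, 1 rose and 2 fell, beside 17.3% of all genes called (8.35% higher and 8.94% lower in Fracture). This class held 339 and 156 Control cells against 2308 and 2359 Fracture cells, and without integration it became a cluster of 65 and 27 Control cells and 2644 and 2695 Fracture cells. The log2 fold change in that cluster was -0.95 (adjusted p = 0.00358). In osteoblast-like cells, which lay down bone matrix, Tnfsf11 was low in both groups, at 1.17 and 1.12 CPM in Control and 2.18 and 2.08 CPM in Fracture (log2 fold change 0.83, SE 0.21, adjusted p = 0.0575). In fibroblast-like cells it was 29.4 and 0.909 CPM in Control, the latter from 1 UMI, and 23.7 and 19.7 CPM in Fracture, with no call (log2 fold change 0.26, SE 0.72). The log2 fold change there hung on the Control preparation kept, at 4.63 without Control-1 and -0.39 without Control-2. Chondrocyte-like cells held 5.18 and 3.49 CPM in Control and 3.86 and 2.82 CPM in Fracture, and the erythroid-like background was 0.716 and 0.121 CPM against 2.60 and 1.07 CPM. In Fracture the order of levels over the stromal classes was thus BMSC-like, hypertrophic and fibroblast-like with no overlap between neighbours, followed by smooth muscle-like (6.26 and 5.66 CPM), and then endothelial-like and chondrocyte-like cells, which overlapped. In Control, BMSC-like cells came first, and the fibroblast-like values were so far apart that one lay above the lower hypertrophic value and the other below both chondrocyte-like values.

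**Figure D1:**
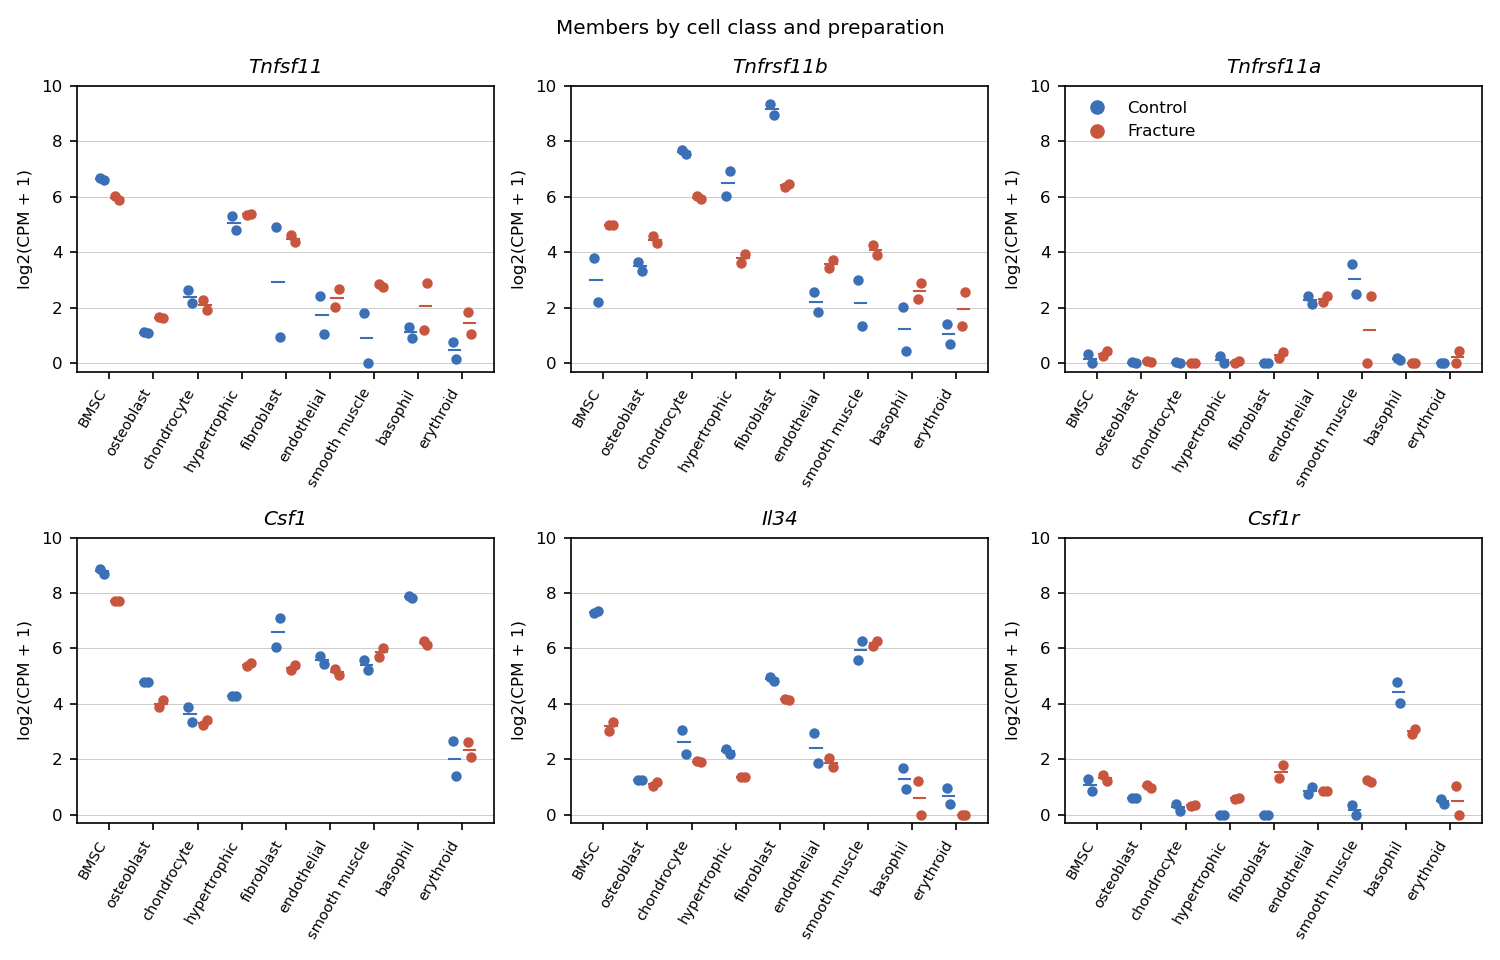
Level of each member by cell class, as log2(CPM + 1) on the y axis, 1 point per preparation (2 Control in blue, 2 Fracture in red) and a short line at the mean of the group, with the last 2 classes being blood cells. Tnfsf11, Csf1 and Il34 in Control stood highest in BMSC-like cells, Tnfrsf11b in fibroblast-like and chondrocyte-like cells, and Csf1r in basophil-like cells.

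Tnfrsf11b, the decoy receptor, was highest in other classes than its ligand and moved in opposite directions in different classes. In Control it was highest in fibroblast-like cells, at 649 and 499 CPM, then in chondrocyte-like cells, at 204 and 184 CPM, and in hypertrophic chondrocyte-like cells, at 65.1 and 121 CPM, with no overlap between these neighbours. After fracture fibroblast-like cells held 81.8 and 88.5 CPM, chondrocyte-like cells 64.4 and 59.5 CPM and hypertrophic cells 11.2 and 14.5 CPM. Every Fracture value lay below every Control value in each of these 3 classes. The log2 fold change was -2.69 in fibroblast-like cells (SE 0.18, adjusted p = 0.00504), where of 4 members tested 2 fell, beside 13.5% of all genes called (7.0% higher and 6.5% lower in Fracture). It was -1.48 in chondrocyte-like cells (SE 0.07, adjusted p = 0.00199), where 1 of 5 members tested was called, beside 34.2% of all genes (18.1% higher and 16.1% lower). It was -2.79 in hypertrophic chondrocyte-like cells (SE 0.32, adjusted p = 0.00878).

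Among the chondrocyte-like subclusters the fall was not even. In the subcluster led by Car8 and Chi3l1, Tnfrsf11b was 130 and 111 CPM in Control and 43.9 and 43.8 CPM in Fracture (log2 fold change -1.36, SE 0.09, adjusted p = 0.00262), with 23.5% of all genes called there, 12.1% higher and 11.4% lower. In the dividing cells led by Pbk and Mybl1 it was 165 and 153 against 88.0 and 84.1 CPM (log2 fold change -0.76, SE 0.10, adjusted p = 0.0200), with 7.03% of all genes called, 4.39% higher and 2.64% lower. In the subcluster led by Serpina1a and Serpina1d it was 232 and 210 against 163 and 143 CPM, and the difference did not pass the test (log2 fold change -0.41, SE 0.08, adjusted p = 0.0526, with 7.71% of all genes called). The differences between these subclusters were not tested. The call held without either Fracture preparation in the Car8-led cells (adjusted p = 0.0472 and 0.0463) and was lost in the Pbk-led cells, both there (0.367 and 0.365) and with the preparation number as a block (0.0632). The Car8-led cells numbered 580 and 155 in Control and 2684 and 2870 in Fracture, the Serpina1a-led cells 861 and 286 against 877 and 934. Among the subclusters just named, the Fracture cells were thus weighted towards the one with the lowest Tnfrsf11b. The chondrocyte-like class also held 1283 cells of the finer hypertrophic chondrocyte-like cluster, 235 of the fibroblast-like and 108 of the erythroid-like cluster. Their part in the fall over the whole class was not tested.

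In bone-forming and marrow stromal cells Tnfrsf11b went the other way, from low levels. In BMSC-like cells it was 12.9 CPM in Control-1 (192 UMIs), 3.61 CPM in Control-2 (45 UMIs), 30.8 CPM in Fracture-1 and 31.1 CPM in Fracture-2 (log2 fold change 2.10, SE 0.59, adjusted p = 0.0392). The size of the difference turned on the Control preparation used, at a log2 fold change of 3.30 without Control-1 and 1.46 without Control-2. A fit with 1 Control preparation takes its spread from the Fracture preparations alone. The BMSC-like cells of the finer fibroblast-like cluster held 74.7 and 2.83 CPM in Control and 21.9 and 25.6 CPM in Fracture, and without them the class held 10.2 and 3.63 against 38.2 and 35.4 CPM (2.58, adjusted p = 0.0140). In mpMSC-like cells, where 34.9% of all genes were called (17.9% higher and 17.0% lower), it was 14.3 and 8.44 CPM in Control and 47.7 and 36.6 CPM in Fracture (log2 fold change 2.03, SE 0.28, adjusted p = 0.00838), a call that was lost without Fracture-1 (1.86, adjusted p = 0.0729) or Fracture-2 (2.22, adjusted p = 0.0595). In dpMSC-like cells it was 5.82 and 1.40 against 12.0 and 11.5 CPM and missed the threshold (log2 fold change 1.81, SE 0.82, adjusted p = 0.224). In osteoblast-like cells, where 1 of 5 members tested rose and 1 fell beside 16.3% of all genes called (9.64% higher and 6.67% lower), it was 11.7 and 9.06 CPM in Control and 23.2 and 19.1 CPM in Fracture (log2 fold change 0.96, SE 0.15, adjusted p = 0.0217). The summed chondrocyte markers of each class were taken as a share of their level in the chondrocyte-like class, and the same share of the chondrocyte-like Tnfrsf11b level was set beside the measured one. It came to 2.03 CPM in both Fracture preparations in BMSC-like cells, and to 3.05 and 2.69 CPM in osteoblast-like cells, below the measured levels. In Control osteoblast-like cells it was 14.0 and 12.5 CPM, which is not below the 11.7 and 9.06 CPM measured there.

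In endothelial-like cells, which line vessels, Tnfrsf11b was 4.98 and 2.57 CPM in Control and 9.83 and 12.2 CPM in Fracture (log2 fold change 1.65, SE 0.34, adjusted p = 0.0256), the only call among 5 members tested, beside 35.7% of all genes (18.6% higher and 17.1% lower). There the level taken from the chondrocyte markers was 6.44 and 3.12 CPM in Control and 9.26 and 8.68 CPM in Fracture, above the measured level in Control and below it in Fracture. Most of the UMIs, 77 of 107 in Fracture-1 and 137 of 165 in Fracture-2, came from the subcluster led by Aplnr and Emcn, in which 30.5% of cells were called doublets. It held 58 and 25 cells in Control and 218 and 233 in Fracture, and within it the level was 42.3 and 25.7 CPM in Control and 27.9 and 41.2 CPM in Fracture. Without it the class held 1.69 and 1.41 against 3.70 and 2.74 CPM and the call was lost (log2 fold change 1.11, adjusted p = 0.0557, with 30.6% of all genes called, a fit added after the data had been seen). With called doublets removed the class values were 3.07 and 2.02 against 8.91 and 11.1 CPM (log2 fold change 2.08, adjusted p = 0.0102). With the preparation number as a block the call was lost (adjusted p = 0.0598). Smooth muscle-like cells held 6.95 and 1.55 CPM in Control and 18.1 and 13.8 CPM in Fracture, from at most 26 UMIs, with no call among 3 members tested (log2 fold change 1.64, SE 0.54, adjusted p = 0.0741, beside 27.0% of all genes called). The erythroid-like background of Tnfrsf11b was 1.67 and 0.606 CPM in Control and 1.56 and 5.01 CPM in Fracture, and its part in these low levels was not tested.

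Each of the Tnfrsf11b calls in the whole classes rested on both Fracture preparations. Without Fracture-1 the log2 fold changes were -2.62 in fibroblast-like (adjusted p = 0.109), -1.51 in chondrocyte-like (0.0553), -2.61 in hypertrophic (0.0796), 2.13 in BMSC-like (0.156), 0.84 in osteoblast-like (0.184) and 1.83 in endothelial-like cells (0.142). Without Fracture-2 they were -2.75 (0.112), -1.42 (0.0554), -3.00 (0.0832), 2.10 (0.153), 1.06 (0.133) and 1.49 (0.162) in the same order, each with the direction of the full fit. In the fits without a Fracture preparation the share of all genes called also fell, to 12.5% and 16.4% in BMSC-like cells and to at most 1.5% in chondrocyte-like, hypertrophic, fibroblast-like, osteoblast-like and endothelial-like cells.

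**Figure D2:**
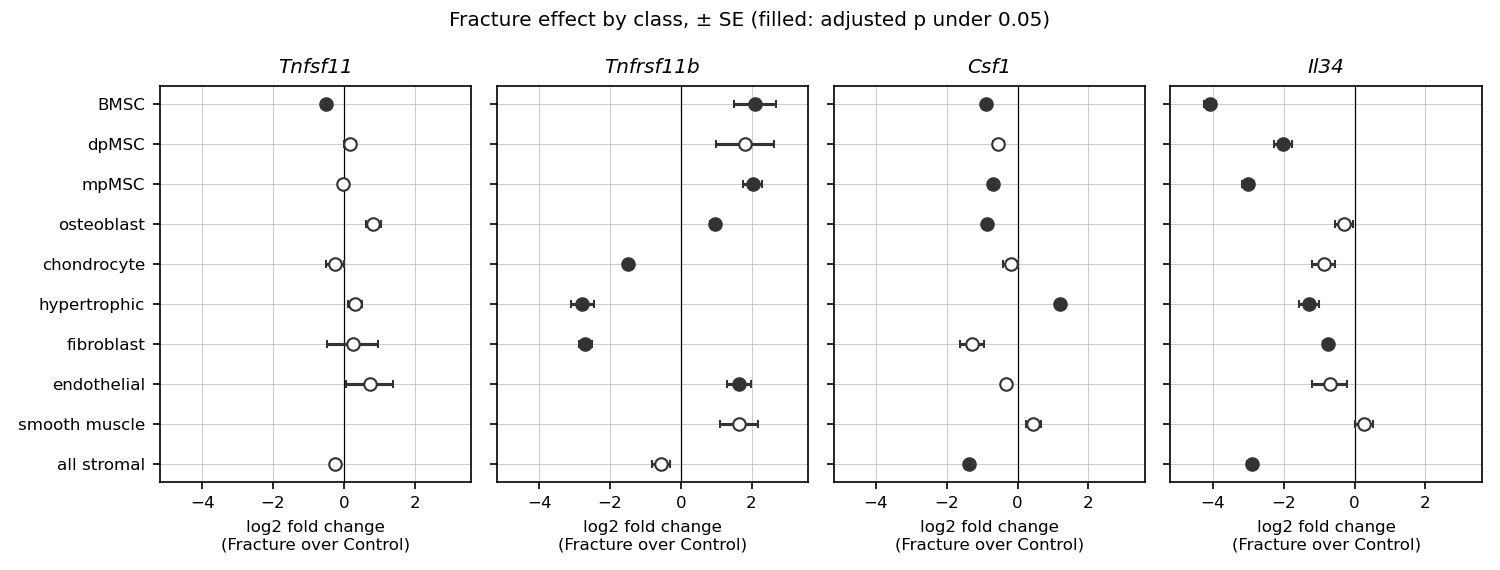
Fracture effect on 4 members by class, as the log2 fold change of Fracture over Control from the edgeR fit on the x axis, with bars of 1 SE and filled points for an adjusted p under 0.05 (n = 2 preparations per group). Tnfrsf11b lay to the left of 0 in chondrocyte-like, hypertrophic and fibroblast-like cells and to the right in the other single classes, while Il34 reached -4.08 in BMSC-like cells.

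The ratio of Tnfsf11 to Tnfrsf11b UMIs within a preparation needs no library size and was taken where both genes held at least 10 UMIs in every preparation. In BMSC-like cells it was 7.94 in Control-1 and 26.7 in Control-2, against 2.07 in Fracture-1 and 1.89 in Fracture-2, a log2 difference of -2.88, which was -3.76 without Control-1 and -2.01 without Control-2. The mpMSC-like cells alone gave 4.38 and 7.64 against 1.22 and 1.49, a log2 difference of -2.10. Hypertrophic chondrocyte-like cells went the other way, from 0.594 and 0.224 in Control to 3.51 and 2.84 in Fracture, a log2 difference of 3.11, which was 3.81 without Control-1 and 2.41 without Control-2. Tnfsf11 thus outnumbered its decoy receptor in BMSC-like cells of both groups, and in hypertrophic cells in the Fracture preparations alone. Chondrocyte-like cells held far more of the decoy in both groups, with ratios of 0.0254 and 0.0189 in Control and 0.0599 and 0.0474 in Fracture, a log2 difference of 1.28, which was 0.67 with clusters made without integration. It was 1.03 in the Car8-led and 0.25 in the Serpina1a-led cells (0.031 there without Fracture-1), and the class shifted towards the former. In BMSC-like, mpMSC-like, hypertrophic and chondrocyte-like cells every Fracture value lay on the same side of every Control value, and the exact permutation test (two-sided) gave p = 0.33, the smallest that 2 against 2 can give.

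The ratio overlapped in osteoblast-like cells, at 0.0995 and 0.124 in Control and 0.0941 and 0.109 in Fracture (log2 difference -0.13, exact permutation p = 0.667). The osteoblast-like ratio rested on 37 and 23 Tnfsf11 UMIs in Control and 40 and 45 in Fracture. In Fracture these levels lay between those of the erythroid-like background. Without integration the direction turned there, at 0.0669 and 0.0778 in Control against 0.121 and 0.0857 in Fracture, which do not overlap (log2 difference 0.50, exact permutation p = 0.33). It also overlapped over all stromal cells, at 0.259 and 0.452 in Control and 0.409 and 0.408 in Fracture (log2 difference 0.26, exact permutation p = 1.00). The pooled ratio thus stayed within the Control range, while the BMSC-like ratio fell and the hypertrophic and chondrocyte-like ratios rose. Fibroblast-like, endothelial-like, smooth muscle-like and dpMSC-like cells fell under 10 UMIs of either gene in a preparation and gave no ratio. Without integration endothelial-like cells did give one, at 0.975 and 0.85 in Control against 0.297 and 0.451 in Fracture. The log2 difference was -1.31 (exact permutation p = 0.33). The BMSC-like cluster made without integration gave no ratio, so the fall in BMSC-like cells was not checked under that setting.

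**Figure D3:**
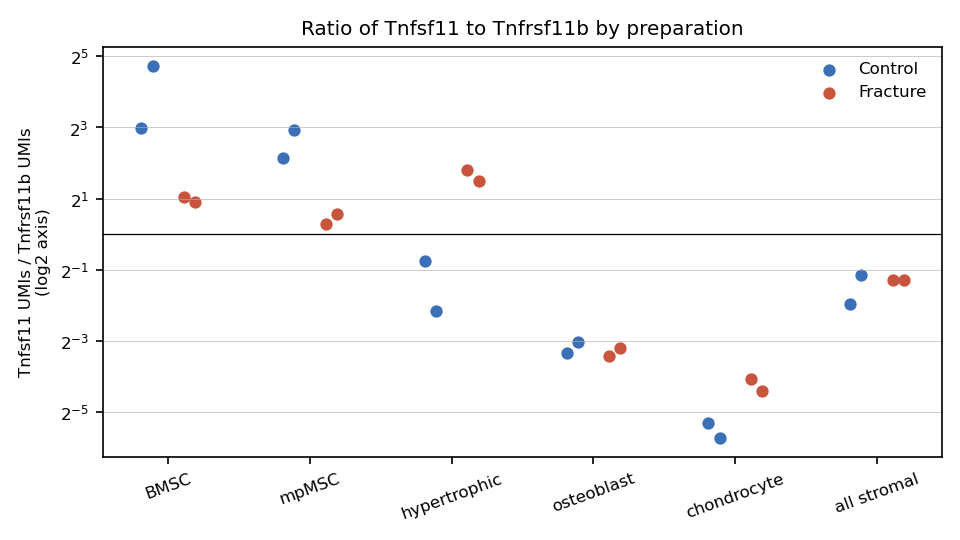
Ratio of Tnfsf11 to Tnfrsf11b UMIs on a log2 axis by class, 1 point per preparation (2 Control in blue, 2 Fracture in red), with a line at equal UMIs. The ratio was lower after fracture in BMSC-like and mpMSC-like cells and higher in hypertrophic and chondrocyte-like cells, and the groups overlap in osteoblast-like cells and in all stromal cells together.

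Csf1, the main growth factor of the monocyte lineage, was highest in BMSC-like cells and fell there. It stood at 471 and 415 CPM in Control and 208 and 210 CPM in Fracture (log2 fold change -0.89, SE 0.09, adjusted p = 0.00327). The mpMSC-like cells went from 368 and 368 to 197 and 210 CPM (log2 fold change -0.69, SE 0.08, adjusted p = 0.00575), so the fall was also called within this subclass, though not without Fracture-1 (-0.62, adjusted p = 0.0725) or Fracture-2 (-0.74, adjusted p = 0.0573). In dpMSC-like cells, with 9.43% of all genes called (5.6% higher and 3.84% lower), the values were 559 and 439 against 333 and 303 CPM, which did not overlap but missed the threshold (log2 fold change -0.55, SE 0.15, adjusted p = 0.0842). Osteoblast-like cells fell from 26.3 and 26.4 to 13.9 and 16.5 CPM (log2 fold change -0.86, SE 0.13, adjusted p = 0.0220). Without Fracture-1 the log2 fold change was -0.86 in BMSC-like cells (adjusted p = 0.0508) and -0.71 in osteoblast-like cells (0.163), and without Fracture-2 it was -0.89 (0.0459) and -1.03 (0.111). Without integration it was -0.34 in BMSC-like cells (adjusted p = 0.215) and -0.53 in osteoblast-like cells (0.0553).

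In hypertrophic chondrocyte-like cells Csf1 rose, from 18.5 and 18.7 CPM to 40.3 and 43.1 CPM (log2 fold change 1.20, SE 0.11, adjusted p = 0.00465). Without integration, in the cluster described above, the log2 fold change was -0.46 (adjusted p = 0.132), so the direction depended on how the class was made, and without Fracture-1 or Fracture-2 the adjusted p was 0.0791 and 0.106. The other classes gave no call for Csf1, although it was called in a subcluster of 2 of them. In the Pbk-led dividing chondrocyte-like cells it fell from 33.8 and 20.9 to 9.63 and 11.8 CPM (log2 fold change -1.30, SE 0.26, adjusted p = 0.0466), and in the Aplnr-led endothelial-like cells from 132 and 72.0 to 43.1 and 40.3 CPM (-1.21, SE 0.23, adjusted p = 0.0258). Both calls were lost without Control-1 (-0.85, adjusted p = 0.159, and -0.68, adjusted p = 0.179), without either Fracture preparation (0.218 to 0.498) and with the preparation number as a block (0.155 and 0.0873). In the Pbk-led cells Tyrobp, a gene of myeloid cells, went from 75.9 and 56.3 to 4.71 and 8.01 CPM, and 3.0% held the blood cell gene Ptprc. The part of blood RNA in the Csf1 fall there was not tested. Fibroblast-like cells held 65.9 and 137 CPM of Csf1 in Control and 36.5 and 40.8 CPM in Fracture (log2 fold change -1.29, SE 0.34, adjusted p = 0.0701). Endothelial-like cells held 51.7 and 41.9 against 37.0 and 32.3 CPM (-0.32, adjusted p = 0.141) and smooth muscle-like cells 47.3 and 36.5 against 50.8 and 63.6 CPM (0.44, adjusted p = 0.174). Basophil-like cells, a blood class left after depletion, held 234 and 223 CPM in Control and 76.9 and 68.8 CPM in Fracture, from only 58 and 54 Fracture UMIs. No gene of that class passed the edgeR test (0 called of 12462, 2450 at an unadjusted p under 0.05, and 887 called by DESeq2), and the log2 fold change of Csf1 there was -1.68 (SE 0.11, adjusted p = 0.103). Csf1 passed there under DESeq2 (-1.69) and with called doublets removed (-1.63, edgeR adjusted p = 0.0442), and in fibroblast-like cells under DESeq2 (-1.26) and with no filter on low counts (-1.20). In fibroblast-like cells the direction turned without integration (0.22, adjusted p = 0.744).

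Il34, the other ligand of the CSF1 receptor, had the largest fall among the members in BMSC-like cells, in both their subclasses and over all stromal cells. In BMSC-like cells it went from 155 and 164 CPM (2313 and 2042 UMIs) to 7.15 and 9.22 CPM (72 and 104 UMIs), a log2 fold change of -4.08 (SE 0.16, adjusted p = 0.00142). It fell in both subclasses. The dpMSC-like cells held 274 and 242 CPM in Control and 44.6 and 71.8 CPM in Fracture (log2 fold change -2.02, SE 0.24, adjusted p = 0.0173), and the mpMSC-like cells 25.2 and 24.2 against 2.59 and 2.86 CPM (log2 fold change -3.00, SE 0.17, adjusted p = 0.00203). Il34 was thus higher in dpMSC-like than in mpMSC-like cells in every preparation, and lower after fracture within each. These subclass calls held without either Fracture preparation, with adjusted p from 0.0350 to 0.0496. With clusters made without integration the log2 fold change in BMSC-like cells was -1.70 (adjusted p = 0.0612).

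In the other whole classes the Il34 fold changes were smaller. It fell in fibroblast-like cells, from 30.6 and 27.3 to 17.1 and 16.6 CPM (log2 fold change -0.74, SE 0.14, adjusted p = 0.0368), and in hypertrophic chondrocyte-like cells, from 4.23 and 3.58 to 1.57 and 1.6 CPM (log2 fold change -1.29, SE 0.28, adjusted p = 0.0401). Cxcl12, a marker of BMSC, went from 814 and 909 to 152 and 165 CPM in fibroblast-like and from 141 and 129 to 20.6 and 33.1 CPM in hypertrophic cells, and the erythroid-like background of Il34 was 0.955 and 0.323 CPM in Control and 0 in both Fracture preparations. Their part in these Il34 differences was not tested. Both calls were lost under DESeq2 (adjusted p = 0.140 and 0.0511), with the preparation number as a block (0.111 and 0.10) and without either Fracture preparation (0.323 to 0.416). They were also lost without Control-1, at log2 fold changes of -0.60 and -1.08 (adjusted p = 0.142 and 0.158). In smooth muscle-like cells, which wrap vessels, Il34 was 47.0 and 76.1 CPM in Control and 67.5 and 76.8 CPM in Fracture, with overlap and no call (log2 fold change 0.26, SE 0.26, adjusted p = 0.498, 95% interval -0.25 to 0.77). This class had the highest Il34 level in Fracture, whereas in Control it stood below the BMSC-like class. Chondrocyte-like cells held 7.33 and 3.59 against 2.80 and 2.72 CPM (log2 fold change -0.88, SE 0.32, adjusted p = 0.106). In their Car8-led subcluster it fell from 11.4 and 5.39 to 3.37 and 3.0 CPM (-1.47, SE 0.29, adjusted p = 0.0285), a call lost without Control-1 (-0.65, adjusted p = 0.263), without either Fracture preparation (0.244 and 0.267) and with the preparation number as a block (0.0803). In the Aplnr-led and Emcn-led endothelial subcluster, where 9.38% of all genes were called (4.55% higher and 4.83% lower), Il34 fell from 49.1 and 33.4 to 4.59 and 4.15 CPM (-3.12, SE 0.32, adjusted p = 0.00373). Cxcl12 went there from 6374 and 4589 to 412 and 416 CPM, and its part in the Il34 and Csf1 differences was not tested.

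The signalling receptors were nearly absent from the stroma. Csf1r was at 0.574 and 0.535 CPM over all stromal cells in Control and 0.647 and 0.677 CPM in Fracture (log2 fold change 0.45, SE 0.19, adjusted p = 0.130). In basophil-like cells it was 27.0 and 15.2 CPM in Control and 6.63 and 7.64 CPM in Fracture, from 5 and 6 Fracture UMIs (log2 fold change -1.59, SE 0.42, adjusted p = 0.185). Within that class nearly all of it came from an unnamed subcluster led by Prtn3, Elane and Irf8 that carried 9 of the 10 monocyte and macrophage markers, with 575 and 163 UMIs in 369 and 107 Control cells. It held 15 and 16 Fracture cells, under the minimum of 20 for a test, at 32.7 and 24.9 CPM against 95.5 and 79.4 CPM in Control. Cells carrying CD45 had been depleted, so these levels describe the cells that were left.

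Tnfrsf11a gave 88 and 36 UMIs in all cells of the Control preparations and 45 and 79 in Fracture. Endothelial-like cells held 44.3% and 77.8% of them in Control and 88.9% and 75.9% in Fracture, and smooth muscle-like cells another 44.3% in Control-1. The endothelial-like level was 4.32 and 3.43 CPM in Control and 3.68 and 4.42 CPM in Fracture (log2 fold change 0.18, SE 0.25, adjusted p = 0.590, 95% interval -0.30 to 0.67). In their subcluster led by Stmn2 and Sema3g, where 22.2% of all genes and 0 of 3 members tested were called, it was 5.63 and 2.94 CPM in Control and 7.56 and 6.4 CPM in Fracture (log2 fold change 0.71, adjusted p = 0.216). Smooth muscle-like cells held 10.8 and 4.66 CPM in Control, from 39 and 6 UMIs, and 0 and 4.41 CPM in Fracture, from 0 and 7 UMIs, too few for the test. A count of 0 allows up to 3 UMIs, for counting error only. In the other classes with at least 20 cells in every preparation the level was 0.358 CPM or less. No osteoclast-like cluster was found. Dcstamp, which osteoclast precursors need to fuse, had 91.5% of its UMIs in megakaryocyte-like cells, and Calcr, the calcitonin receptor of osteoclasts, gave 4 and 5 UMIs in Control and 1 and 3 in Fracture. Siglec15 gave 6 and 9 UMIs against 0 and 1, and Oscar 21 and 12 against 10 and 19. Ocstamp (13 and 5 UMIs against 38 and 37) and Atp6v0d2 (17 and 9 against 41 and 84) were higher in both Fracture preparations. So was Ctsk over all cells, at 111 and 79.2 CPM against 153 and 147 CPM, with most UMIs in osteoblast-like cells (28.8%), while Acp5 overlapped.

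The class with the largest share of a gene's UMIs differed between the groups for Tnfsf11, Il34 and Csf1r. BMSC-like cells held 74.5% and 88.9% of Tnfsf11 UMIs in Control and 27.7% and 25.7% in Fracture, while hypertrophic chondrocyte-like cells held 9.38% and 5.04% in Control and 51.0% and 54.7% in Fracture. The hypertrophic cells were 2308 and 2359 of the Fracture cells, so they outweighed the BMSC-like cells at a lower level per UMI. Chondrocyte-like cells held 66.8% and 62.1% of Tnfrsf11b UMIs in Control and 67.7% and 64.4% in Fracture, with more of these cells at a lower level. For Csf1, BMSC-like cells held 48.9% and 57.7% in Control and 43.0% and 40.7% in Fracture, basophil-like cells 36.0% and 27.8% against 1.19% and 0.927%, and hypertrophic cells 0.642% and 0.524% against 24.7% and 25.4%. For Il34, the BMSC-like share went from 78.7% and 89.3% to 12.7% and 15.5%, and in Fracture chondrocyte-like (29.6% and 27.6%), fibroblast-like (22.3% and 21.8%) and smooth muscle-like cells (17.2% and 18.1%) held the rest of it for the most part. These shares depend on which cells survived dissociation and depletion, and were not tested.

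**Figure D4:**
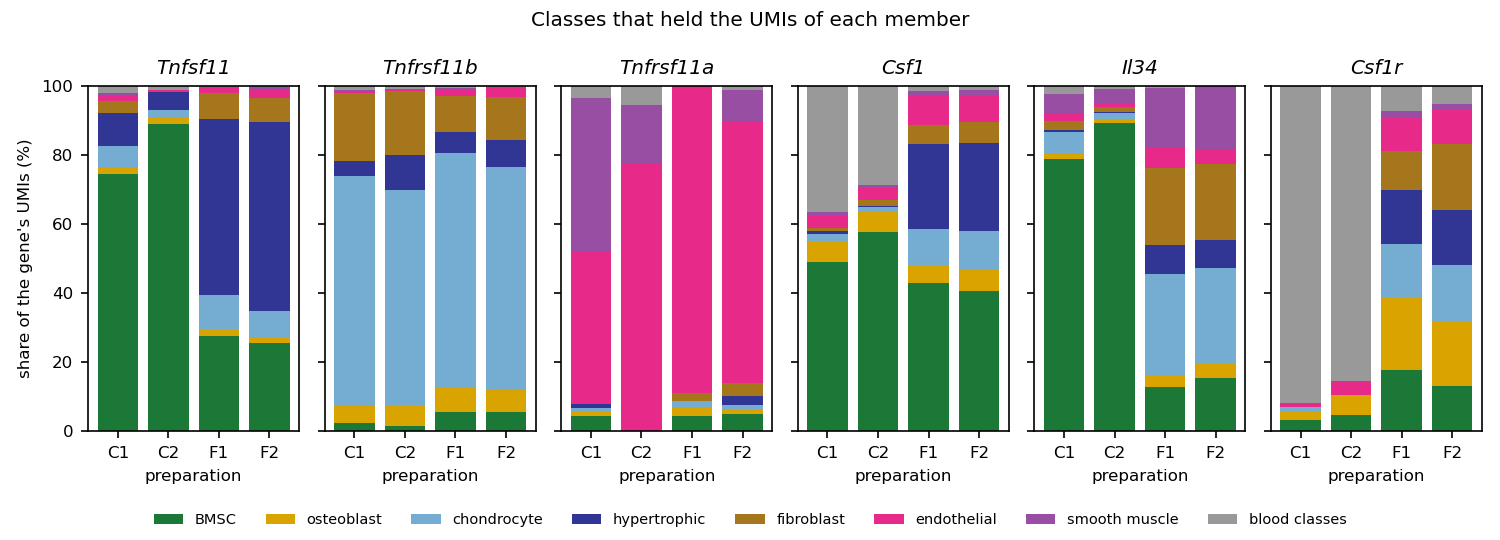
Share of the UMIs of each member, in percent on the y axis, that lay in each class, 1 stacked bar per preparation (C1 and C2 Control, F1 and F2 Fracture). Hypertrophic chondrocyte-like cells held 51.0% and 54.7% of Tnfsf11 UMIs in Fracture, and the blood classes held most Csf1r UMIs in Control alone.

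Over all stromal cells together, Csf1 and Il34 fell and no member rose, so 2 of 6 members tested were called, beside 39.6% of all genes (18.6% higher and 21% lower). Csf1 went from 98.6 and 114 to 34.9 and 36.1 CPM (log2 fold change -1.37, SE 0.09, adjusted p = 0.00406) and Il34 from 31.1 and 40.4 to 4.09 and 4.22 CPM (-2.90, SE 0.14, adjusted p = 0.00348). Tnfsf11 went from 21.7 and 23.8 to 16.8 and 16.1 CPM (-0.26, SE 0.07, adjusted p = 0.0516) and Tnfrsf11b from 83.9 and 52.7 to 41.0 and 39.5 CPM (-0.56, SE 0.25, adjusted p = 0.146), and neither was called. A pooled level cannot tell a lower share of a cell type from less RNA per cell. Without Fracture-1 or Fracture-2 the Csf1 and Il34 calls were lost. The Tnfsf11 log2 fold change was -0.28 without Control-1 and -0.22 without Control-2. With the blood classes included, Tnfsf11 was at 0.38 (adjusted p = 0.0860) and Tnfrsf11b at 0.056 (adjusted p = 0.914) on the log2 scale, while Csf1r fell by 2.12 (adjusted p = 0.0421), with 28.5% of all genes called. On plain CPM over all cells the groups overlapped for Tnfsf11 and for Tnfrsf11b. The mean of Tnfrsf11b was then lower in Fracture, so its direction depended on the scaling. Basophil-like cells had held 91.4% and 81.7% of Csf1r UMIs in Control and 5.21% and 5.26% in Fracture.

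Whether the fracture effect differed between BMSC-like cells and another class was tested directly, with the preparation as a block, and 20 of 42 such terms passed. Tnfrsf11b moved up in BMSC-like cells relative to fibroblast-like cells by 4.80 on the log2 scale (SE 0.32, adjusted p = 6.34e-05), with 18.3% of all genes called in that contrast, and relative to hypertrophic cells by 4.72 (SE 0.50, adjusted p = 3.69e-05) and chondrocyte-like cells by 3.58 (SE 0.39, adjusted p = 0.000781), with 35.6% and 41.4% called. The Csf1 effect in BMSC-like cells was lower than in hypertrophic cells by 2.15 (SE 0.13, adjusted p = 9.67e-07). The Il34 effect was lower than in smooth muscle-like cells by 4.44 (SE 0.23, adjusted p = 3.04e-07), with 18.3% called. The Tnfsf11 effect was lower than in hypertrophic cells by 0.83 (SE 0.14, adjusted p = 0.000984) and than in osteoblast-like cells by 1.35 (SE 0.19, adjusted p = 0.000638), with 36.6% called in the latter contrast. In osteoblast-like cells the Fracture values of Tnfsf11 lay between those of the erythroid-like background, whose part in this term was not tested. Without integration the log2 fold changes in BMSC-like and hypertrophic cells were -0.34 and -0.46 for Csf1 and 0.30 and -0.95 for Tnfsf11. These differences thus depended on how the classes were made, and no such term was fitted for those clusters. Fewer terms passed without either Fracture preparation, and the share of all genes called in those fits is not set beside them here.

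The share of cells with a UMI was compared after every cell had been thinned to 1000 UMIs, since depth per cell differed between the groups (in BMSC-like cells a median of 5806 UMIs in Control and 8591 in Fracture, with 69 of 4263 Control cells left out as shallower). In BMSC-like cells Csf1 was found in 37.2% and 34.4% of Control cells and 19.5% and 16.3% of Fracture cells. Il34 was found in 15.6% and 15.5% against 0.879% and 0.455%, and Tnfsf11 in 9.39% and 9.28% against 6.74% and 6.56%. These shares were not taken apart by subclass. Tnfrsf11b was found in 16.8% and 15% of Control chondrocyte-like cells and 6.33% and 6.43% of Fracture ones, in 20.6% and 16% against 7.95% and 8.29% of fibroblast-like cells, and in 4.86% and 5.19% against 1.17% and 0.721% of hypertrophic cells. In erythroid-like cells, with a median of 6326 and 7260 UMIs, Csf1 was found in at most 0.735% of cells of a preparation and the other 3 ligand and decoy genes in at most 0.294%. Without thinning, BMSC-like cells with a Csf1 UMI were 79.2% and 81.7% against 68.2% and 67.3%, with Il34 42.1% and 48.1% against 5.76% and 7.01%, and with Tnfsf11 33.2% and 35.6% against 32.4% and 32.8%. Cells with Tnfrsf11b were then 64.3% and 63.5% against 36.9% and 38.8% of the chondrocyte-like, 44.3% and 47.0% against 30.1% and 31.4% of the fibroblast-like and 23.6% and 25.6% against 7.84% and 8.05% of the hypertrophic class. The groups did not overlap in any of the comparisons just named between Control and Fracture, and the exact permutation p was 0.33 for each, the smallest possible.

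Of the genes of the pathway around the members, 63 were followed in 5 lists. The list of RANKL and osteoprotegerin regulators, hormone and cytokine receptors, cytokines and transcription factors, had 5 of 19 genes up and 10 down in BMSC-like cells, with a median log2 fold change of -0.53 against -0.03 over all genes tested, and 78.9% called against 51.5%. Separate fits of the subclasses gave 4 up and 1 down of 17 in dpMSC-like cells (29.4% against 9.43% of all genes, median -0.10) and 1 up and 9 down of 17 in mpMSC-like cells (58.8% against 34.9%, median -0.63), and their difference was not tested. Ptgs2, which makes the prostaglandins that induce RANKL, rose in BMSC-like, chondrocyte-like, hypertrophic, fibroblast-like, osteoblast-like and endothelial-like cells, in BMSC-like cells from 2.01 and 0.801 to 86.6 and 61.2 CPM (log2 fold change 5.88, SE 0.48, adjusted p = 0.00252). It also rose in mpMSC-like cells, from 3.22 and 2.16 to 48.0 and 49.6 CPM, and in dpMSC-like cells, from 0.529 and 0 to 85.8 and 18.0 CPM. In endothelial-like cells it went from 1.44 and 0.122 to 23.1 and 20.1 CPM, but without the Aplnr-led subcluster from 1.57 and 0.129 to 5.06 and 2.93 CPM, which was not called (2.25, adjusted p = 0.0982). In hypertrophic chondrocyte-like cells it rose from 29.6 and 24.3 to 273 and 272 CPM (3.37, SE 0.14, adjusted p = 0.00109), and in chondrocyte-like cells from 1.64 and 1.20 to 85.2 and 84.3 CPM (6.04, SE 0.16, adjusted p = 0.00145). Il11 and Lif, cytokines of the IL-6 family, rose in BMSC-like cells to 2.98 and 2.13 CPM and to 10.8 and 7.72 CPM. Neither was called in mpMSC-like cells, where Il11 did not pass the filter on low counts, or in dpMSC-like cells, where neither passed it. Il1r1, the receptor of interleukin 1, fell in BMSC-like cells from 147 and 171 to 31.8 and 34.0 CPM (-2.08, SE 0.12, adjusted p = 0.00164). It fell in dpMSC-like cells from 219 and 223 to 75.5 and 117 CPM and in mpMSC-like cells from 61.8 and 69.9 to 16.1 and 15.1 CPM. Vdr, the vitamin D receptor, fell in osteoblast-like cells from 139 and 126 to 65.3 and 67.4 CPM (-1.06, SE 0.07, adjusted p = 0.00557), and in hypertrophic cells from 63.7 and 45.8 to 28.4 and 32.1 CPM (-0.82, SE 0.20, adjusted p = 0.0490). In the other stromal classes the regulators had 7 up and 3 down of 19 in chondrocyte-like (52.6% of the list against 34.2% of all genes), 4 and 7 of 17 in endothelial-like (64.7% against 35.7%), 3 and 3 of 18 in fibroblast-like (33.3% against 13.5%). They had 3 and 4 of 17 in hypertrophic (41.2% against 17.3%), 4 and 3 of 18 in osteoblast-like (38.9% against 16.3%) and 6 and 2 of 16 in smooth muscle-like cells (50% against 27.0%).

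The signalling genes downstream of RANK, such as Traf6, Nfkb1 and Nfatc1, had 2 up and 6 down of 13 in BMSC-like cells (61.5% against 51.5% of all genes, median -0.44), but 1 up and 1 down in dpMSC-like (15.4% against 9.43%) and 2 up and 1 down in mpMSC-like cells (23.1% against 34.9%). They had 4 up and 1 down in osteoblast-like (38.5% against 16.3%), 3 and 1 in chondrocyte-like (30.8% against 34.2%), 3 and 0 in hypertrophic (23.1% against 17.3%). The counts were 1 and 2 in endothelial-like (23.1% against 35.7%), 0 and 1 in fibroblast-like (7.69% against 13.5%) and 2 and 0 of 12 in smooth muscle-like cells (16.7% against 27.0%). These genes act in many pathways, and Tnfrsf11a itself was near 0 in most of these classes. Gab2, an adaptor of RANK, rose in hypertrophic cells from 1.61 and 1.59 to 5.25 and 4.73 CPM. Of the CSF1 receptor list, Tyrobp and Spi1, genes of myeloid cells, fell in chondrocyte-like cells, Tyrobp from 11.8 and 10.6 to 0.638 and 1.24 CPM (-3.39, SE 0.34, adjusted p = 0.00618). Tyrobp also fell in fibroblast-like cells, from 19.3 and 19.1 to 0.272 and 2.93 CPM. It was among the leading genes of the basophil-like class, which held 2196 and 917 Control cells and 85 and 84 Fracture cells. The part of RNA from that class in these falls was not tested. Ptprz1 of the same list, a receptor of IL-34, fell in fibroblast-like cells from 45.3 and 15.5 to 2.18 and 3.16 CPM (-3.55, SE 0.55, adjusted p = 0.0230). That list had 1 up and 3 down of 9 in BMSC-like (44.4% against 51.5% of all genes), 1 and 1 of 7 in dpMSC-like (28.6% against 9.43%), 1 and 2 of 7 in mpMSC-like (42.9% against 34.9%). It had 2 and 3 of 9 in chondrocyte-like (55.6% against 34.2%), 1 and 3 of 7 in fibroblast-like (57.1% against 13.5%), 1 and 1 of 8 in osteoblast-like (25% against 16.3%) and 1 and 0 of 5 in smooth muscle-like cells (20% against 27.0%). There were none called in endothelial-like (of 9) or hypertrophic cells (of 8).

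Of the attractants of monocytes, Cxcl12, which holds blood precursors in the marrow, fell in BMSC-like cells from 20834 and 21246 to 1331 and 1567 CPM (-3.66, SE 0.33, adjusted p = 0.00284). It was not called in dpMSC-like cells, at 33701 and 28665 CPM in Control and 13500 and 13664 CPM in Fracture. It fell in mpMSC-like cells from 6239 and 6990 to 739 and 840 CPM, and in fibroblast-like, hypertrophic and osteoblast-like cells by 2.38, 2.28 and 2.12 on the log2 scale. The summed BMSC markers, Cxcl12 among them, were lower in both Fracture preparations in those 3 classes, and their part in it was not tested. Ccl2 rose in smooth muscle-like cells from 1.95 and 0 to 159 and 83.1 CPM (6.4, SE 0.65, adjusted p = 0.00321), and Ccl7 there went from 0 and 0 to 57.0 and 46.6 CPM. Spp1 (osteopontin), a matrix protein, rose in endothelial-like cells from 344 and 324 to 2842 and 2482 CPM (3.11, SE 0.11, adjusted p = 0.00491), where the hypertrophic chondrocyte markers, Spp1 among them, were all 7 higher in both Fracture preparations (1021 and 844 against 8344 and 8535 CPM summed), and their part in it was not tested. The list had 1 up and 4 down of 6 in BMSC-like (83.3% against 51.5% of all genes), 1 and 1 of 6 in dpMSC-like (33.3% against 9.43%), 0 and 2 of 5 in mpMSC-like (40% against 34.9%). It had 2 and 1 of 6 in chondrocyte-like (50% against 34.2%), 2 and 2 of 6 in endothelial-like (66.7% against 35.7%), 0 and 1 of 6 in fibroblast-like (16.7% against 13.5%). In hypertrophic cells it had 0 and 1 of 5 (20% against 17.3%), with 2 and 1 of 4 in osteoblast-like (75% against 16.3%) and 4 and 0 of 5 in smooth muscle-like cells (80% against 27.0%). Of the osteoclast genes, Mmp9 rose in osteoblast-like cells from 1.67 and 0.536 to 44.6 and 24.3 CPM (4.85, SE 0.58, adjusted p = 0.0137) and Acp5 in fibroblast-like cells from 26.0 and 20 to 123 and 131 CPM (2.49, SE 0.17, adjusted p = 0.00490). Mmp9 was also the leading gene of the mpMSC-like cells, at 860 and 721 CPM in Control and 1990 and 1443 CPM in Fracture. Of those cells, 231 lay in the osteoblast-like class, and their part in the Mmp9 rise was not tested. Mmp9 rose too in chondrocyte-like cells (0.935 and 0.299 to 6.26 and 7.84 CPM) and dpMSC-like cells (7.41 and 6.63 to 118 and 209 CPM). The study reports high Mmp9 in septoclasts, cartilage-resorbing cells of mesenchymal origin that it separates from osteoclasts, and also MMP9 protein in osteoclasts. A call of Mmp9 in this list thus does not tell these cell types apart. The osteoclast gene list had 2 up and 0 down of 5 in BMSC-like (40% against 51.5% of all genes), 3 and 0 of 5 in dpMSC-like (60% against 9.43%), 1 and 1 of 5 in mpMSC-like (40% against 34.9%). It had 3 and 0 of 5 in chondrocyte-like (60% against 34.2%), 3 and 1 of 5 in endothelial-like (80% against 35.7%), 2 and 1 of 6 in fibroblast-like (50% against 13.5%). In hypertrophic cells it had 1 and 0 of 5 (20% against 17.3%), with 2 and 1 of 5 in osteoblast-like (60% against 16.3%) and 1 and 1 of 4 in smooth muscle-like cells (50% against 27.0%).

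Genes whose level followed a member most closely were ranked by Pearson's r of log2(CPM + 1) over the 36 sums of 9 classes in 4 preparations, among 9861 genes that reached 20 CPM in a class. The sums share libraries and classes, so r is a description. For Tnfsf11 the first 3 were Podnl1 (r = 0.908), Svep1 (0.869) and the collagenase Mmp13 (0.842). For Tnfrsf11b they were Ngef (0.939), D630045J12Rik (0.886) and Sema3c (0.882), highest in fibroblast-like cells. For Csf1 they were Galk2 (0.903), Tep1 (0.878) and Man2a2 (0.841), and for Il34 the complement protease C1s (0.943), Rarres2 (0.943) and Cygb (0.940). For Csf1r they were Tifab (0.909), Plgrkt (0.908) and Kcnk12 (0.901), and for Tnfrsf11a Syt15 (0.909), Arhgef7 (0.902) and Tcf15 (0.902), where the low level of the member limits what r can show.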

How the data were processed

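Single-cell RNA was measured in 8 libraries from 4 preparations. The deposited values are UMI counts per gene and cell, which the authors made before deposit. The submitters' processing notes name bcl2fastq 2.19.1.403, STAR 2.7.3a, UMI-tools 1.0.0, featureCounts 1.6.4 of Subread and the mm10 build. The study's methods name another counting route, and which one made these tables was not settled here.

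Cells were kept at 500 to 6000 genes and at most 25% mitochondrial UMIs, and a gene entered if 3 or more cells held it. Preparations were integrated and clustered with Seurat 5.3.0 (12 components, resolution 0.1, and 0.3 for subclasses), and clusters were named from marker lists. Scrublet, run in scanpy 1.11.5, called 1.58% of cells doublets, which were kept except in an alternative. UMIs were summed per class and preparation, for classes with at least 20 cells in each preparation, and tested with edgeR 4.0.16 (quasi-likelihood, TMM, filterByExpr, R 4.3.3) with Benjamini-Hochberg adjustment over all genes tested and a call at an adjusted p under 0.05. Every adjusted p is from this test unless DESeq2 1.42.0 is named. The fit was also run on simulated counts, with equal numbers of genes raised and lowered. Far fewer genes were changed there than were called in the stromal classes. The simulation therefore does not speak to error rates in these data. Ratios and shares were compared with exact permutation tests, two-sided. The libraries held 56543151 to 89126291 UMIs, and UMI intervals and the limit of 3 UMIs for a count of 0 cover counting error only. The members and gene lists were chosen with earlier results of these data known. Named pathway genes were, in each class and direction, at most the 3 called genes with the largest change whose preparations did not overlap, and of like-pattern genes the first 3 by r. Preparations of the same number correlated at 0.11 in their deviations over all stromal cells and, with 2 pairs, were not treated as paired. Promoter windows came from RefSeq.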

Additional observations from a re-analysis of the deposited data

Results flagged for a closer look

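In 54 groups of 4 libraries, 2 held a library that stood apart from the others, where chance gives about 1 in 20. The osteoblast-like cells of the first library of Fracture-1 held 27.7 CPM of Tnfrsf11b, and the other 3 Fracture libraries 18.4 to 19.4 CPM. The smooth muscle-like cells of the second library of Control-1 held 13 CPM of Tnfrsf11b, and the other 3 Control libraries 1.09 to 1.75 CPM.

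The fracture effect in BMSC-like cells differed from that in another class in 20 tests of the difference itself (edgeR, adjusted p under 0.05), given as the BMSC-like minus the other log2 fold change. The share of all genes called in these contrasts was 41.4% for chondrocyte-like, 36.6% for osteoblast-like, 35.6% for hypertrophic, 25.8% for endothelial-like, 18.3% for fibroblast-like and for smooth muscle-like, 11.6% for basophil-like and 6.81% for erythroid-like cells. For Il34 it was -4.44 against smooth muscle-like, -3.79 against osteoblast-like, -3.38 against endothelial-like, -3.37 against fibroblast-like, -3.13 against chondrocyte-like and -2.81 against hypertrophic cells. These Il34 terms rest on the whole BMSC-like class, where the fall was larger than within either subclass. With clusters made without integration, Il34 fell less in BMSC-like than in hypertrophic cells, and no such term was fitted for those clusters. For Tnfrsf11b it was 4.80 against fibroblast-like, 4.72 against hypertrophic, 3.58 against chondrocyte-like and 1.13 against osteoblast-like cells. For Csf1 it was -2.15 against hypertrophic, -1.37 against smooth muscle-like, -0.69 against chondrocyte-like, -0.59 against endothelial-like and 0.93 against basophil-like cells. For Tnfsf11 it was -3.46 against erythroid-like, -2.27 against smooth muscle-like, -1.35 against osteoblast-like and -0.83 against hypertrophic cells. For Csf1r it was 2.32 against basophil-like cells. The Tnfsf11 terms against erythroid-like cells, which serve as the free RNA background, and smooth muscle-like cells rested there on 3, 3, 5 and 3 UMIs and on 9, 0, 9 and 9 UMIs, too few for a fit within those classes, and compare BMSC-like cells with levels near 0. The Tnfsf11 term against osteoblast-like cells also compares with low levels, which in Fracture lay between those of the erythroid-like background.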

How the results depend on the processing

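With 2 preparations per group, most calls rested on both Fracture preparations. When 1 preparation was left out, the lone sample was assumed to vary like the other group. Member calls over the classes, 13 in all, numbered 1 to 24, those over all stromal cells, 2 in all, 0 to 5, those between classes, 20 in all, 12 to 24, and list calls, 145 in all, 17 to 241. The share of all genes called moved too, from 12.5% to 62.1% in BMSC-like and from 0% to 57.5% in all stromal cells. The log2 fold changes ranged, in BMSC-like cells, from -0.98 to -0.79 for Csf1, 1.46 to 3.30 for Tnfrsf11b and -0.55 to -0.44 for Tnfsf11; in chondrocyte-like cells from -0.44 to 0.13 for Csf1 and -1.54 to -1.42 for Tnfrsf11b; in endothelial-like cells from 1.27 to 2.21 for Tnfrsf11b; in fibroblast-like cells from -0.81 to -0.60 for Il34, -2.88 to -2.45 for Tnfrsf11b and -0.39 to 4.63 for Tnfsf11. They ranged in hypertrophic cells from 1.14 to 1.26 for Csf1, -3.13 to -2.30 for Tnfrsf11b and -1.38 to -1.08 for Il34, in osteoblast-like cells from -1.03 to -0.71 for Csf1 and 0.81 to 1.11 for Tnfrsf11b, and in smooth muscle-like cells from -0.065 to 0.63 for Il34. Over all stromal cells they ranged from -1.43 to -1.29 for Csf1, -3.03 to -2.72 for Il34, -0.87 to -0.14 for Tnfrsf11b and -0.28 to -0.22 for Tnfsf11, and for Tnfsf11 from -0.028 to 0.31 in dpMSC-like and -0.035 to 0.032 in mpMSC-like cells, and for Tnfrsf11b from -0.18 to 0.56 in the Aplnr-led endothelial-like cells. The log2 ratio of Tnfsf11 to Tnfrsf11b ranged from -0.29 to 0.028 in osteoblast-like and from -0.15 to 0.66 in all stromal cells.

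Without integration, the values were -0.34 for Csf1, -1.70 for Il34, 1.79 for Tnfrsf11b and 0.30 for Tnfsf11 in BMSC-like cells, 0.37 for Csf1 in chondrocyte-like, 0.22 for Csf1 and -0.77 for Il34 in fibroblast-like, -0.46 for Csf1, -0.95 for Tnfsf11 and -2.14 for Il34 in hypertrophic, and -0.53 for Csf1 and a log2 ratio of 0.50 in osteoblast-like cells, where the clusters themselves hold other cells. With the preparation number as a block, Tnfrsf11b in endothelial-like (1.68) and Il34 in fibroblast-like (-0.72) and hypertrophic cells (-1.27) lost their calls, and pairing changed no other member call in the classes or over all stromal cells. Il34 in these last 2 classes also lost its call under DESeq2 (-0.69 and -1.24) and without called doublets (-0.66 and -1.02), and in hypertrophic cells with at least 3000 UMIs (-1.15) or 1000 genes per cell (-1.12); the cause was not tested. Without the Aplnr-led subcluster, left out after the data had been seen, Tnfrsf11b in endothelial-like cells was at 1.11 and lost its call. Without called doublets Csf1 in chondrocyte-like cells was at 0.16. With the 8 libraries as samples, Tnfrsf11b (-0.57) and Tnfsf11 (-0.27) were called over all stromal cells, 6 members in all, and the log2 ratios of -2.89 in BMSC-like, 1.30 in chondrocyte-like and 3.23 in hypertrophic cells passed the exact test, which counts the 2 libraries taken as loadings of a preparation as separate samples. With blood included, Tnfrsf11b was at 0.056 and Tnfsf11 at 0.38 after TMM scaling, while on plain CPM the groups overlapped for both. TMM scaling moved the median gene from plain CPM by 0.19 in BMSC-like, 0.17 in chondrocyte-like, 0.12 in endothelial-like and 0.27 in erythroid-like cells, on the log2 scale.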
